A study of Homo sapiens with 4 samples.

Results

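The genes described here encode the proteins of the mitochondrial ribosome, measured by RNA sequencing in BEAS-2B cells, a human bronchial epithelial line that was immortalised in culture. Members were all gene symbols made of MRPL or MRPS, a number and at most 1 final letter. The rule found 77 of the 24424 symbols in the count tables, of which 48 were large subunit symbols (MRPL) and 29 were small subunit symbols (MRPS), and it used no measured value. The cells were of wild-type genotype and were compared in 4 groups of 1 library each. The siOCLN+LPS cells received an siRNA against occludin, a tight junction protein encoded by OCLN, for 24 h and then lipopolysaccharide (LPS, a bacterial ligand of TLR4) for 2 h. The cells labelled wtOCLN+LPS were transfected with wild-type occludin for 24 h before the same LPS treatment. The LPS cells had LPS alone, and the control cells were untreated. The labels of the LPS and control libraries mention no transfection, so an effect of the occludin reagent and an effect of transfection itself cannot be told apart.

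The mitochondrial ribosome translates the few proteins encoded by mitochondrial DNA, nearly all of them core subunits of the respiratory chain and of ATP synthase. Its RNAs are made inside the organelle, whereas every one of its proteins is encoded in the nucleus, made in the cytosol and imported. The small subunit binds the mRNA and reads its codons, and the large subunit joins the amino acids and releases the new chain at the inner membrane. Assembly needs dedicated GTPases, methyltransferases and helicases, and transcription of the protein genes is commonly tied to ETS-family factors such as GABP and to NRF1.

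Library totals ran from 13867494 to 17500031 counts, so 1 count was worth 0.0571 to 0.0721 CPM (counts of a gene per 1000000 counts of its library). OCLN stood at 21.0 CPM in siOCLN+LPS, 29.7 CPM in the library labelled wtOCLN+LPS, 50.4 CPM in LPS and 55.4 CPM in control, so the library with the wild-type construct went against its label. The 8 epithelial markers (KRT5, KRT7, KRT8, KRT18, KRT19, CDH1, EPCAM and TP63) summed to 2878 CPM in siOCLN+LPS, 2893 CPM in the library labelled wtOCLN+LPS, 1442 CPM in LPS and 1628 CPM in control. EPCAM lay at 1.26 to 2.67 CPM in all 4 libraries. Of 13 markers of other cell types, 10 stayed under 1 CPM in every library and 5 of these (CD3E, MS4A1, FOXJ1, TPSAB1 and HBB) had no count at all. The list of other cell types summed to 111 CPM in siOCLN+LPS, 119 CPM in the library labelled wtOCLN+LPS, 93.7 CPM in LPS and 87.1 CPM in control, mostly from COL1A1 and PDGFRB. These summed marker levels moved with the transfected libraries, and their part in the results below was not tested.

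Each group being 1 library, nothing could be checked against replicates and no p-value was computed; what is compared is libraries, not conditions. A gene entered a comparison when its mean over the 4 libraries was at least 10 CPM, which 9807 genes and all 77 members reached. It was counted as higher when its CPM was at least 25% above that of the other library and as lower when it was at least 20% below, the same ratio turned round. This is called the base threshold here, and 1.5-fold was used as a stricter threshold. Intervals are 95% and exact, from the counts of both libraries, and cover counting error only. In bulk RNA, fewer cells with a transcript and less of it per cell cannot be told apart.

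All 77 members were detected in every library, and scaled to library totals the level of the family was nearly the same in the 4 libraries. Together they took 0.314% (0.311 to 0.317) of the counts in siOCLN+LPS, 0.299% (0.296 to 0.301) in the library labelled wtOCLN+LPS, 0.300% (0.297 to 0.303) in LPS and 0.318% (0.315 to 0.321) in control. The median member stood at 36.4 CPM in siOCLN+LPS, 34.4 CPM in the library labelled wtOCLN+LPS, 33.5 CPM in LPS and 35.4 CPM in control. The summed share thus differed by little between libraries, with siOCLN+LPS and control slightly above the others. That order depends on the scaling: with TMM factors (edgeR's trimmed mean of M values) the summed level was 3347 CPM in siOCLN+LPS, 3228 CPM in the library labelled wtOCLN+LPS, 2885 CPM in LPS and 2867 CPM in control. The balance between subunits did differ between libraries. Large subunit counts outnumbered small subunit counts 1.64 to 1 (1.61 to 1.66) in siOCLN+LPS and 1.62 to 1 (1.59 to 1.64) in the one labelled wtOCLN+LPS, against 1.53 to 1 (1.5 to 1.56) in LPS and 1.5 to 1 (1.47 to 1.52) in control. The intervals of both transfected libraries lay above those of both others, and this ratio does not depend on how libraries are scaled. Structures place MRPS30 and MRPS18A in the large subunit, and MRPS36 is now known as a subunit of the 2-oxoglutarate dehydrogenase complex. With those symbols moved or left out, the ratio was 1.78 in siOCLN+LPS, 1.77 in the library labelled wtOCLN+LPS, 1.67 in LPS and 1.64 in control.

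**Figure D1:**
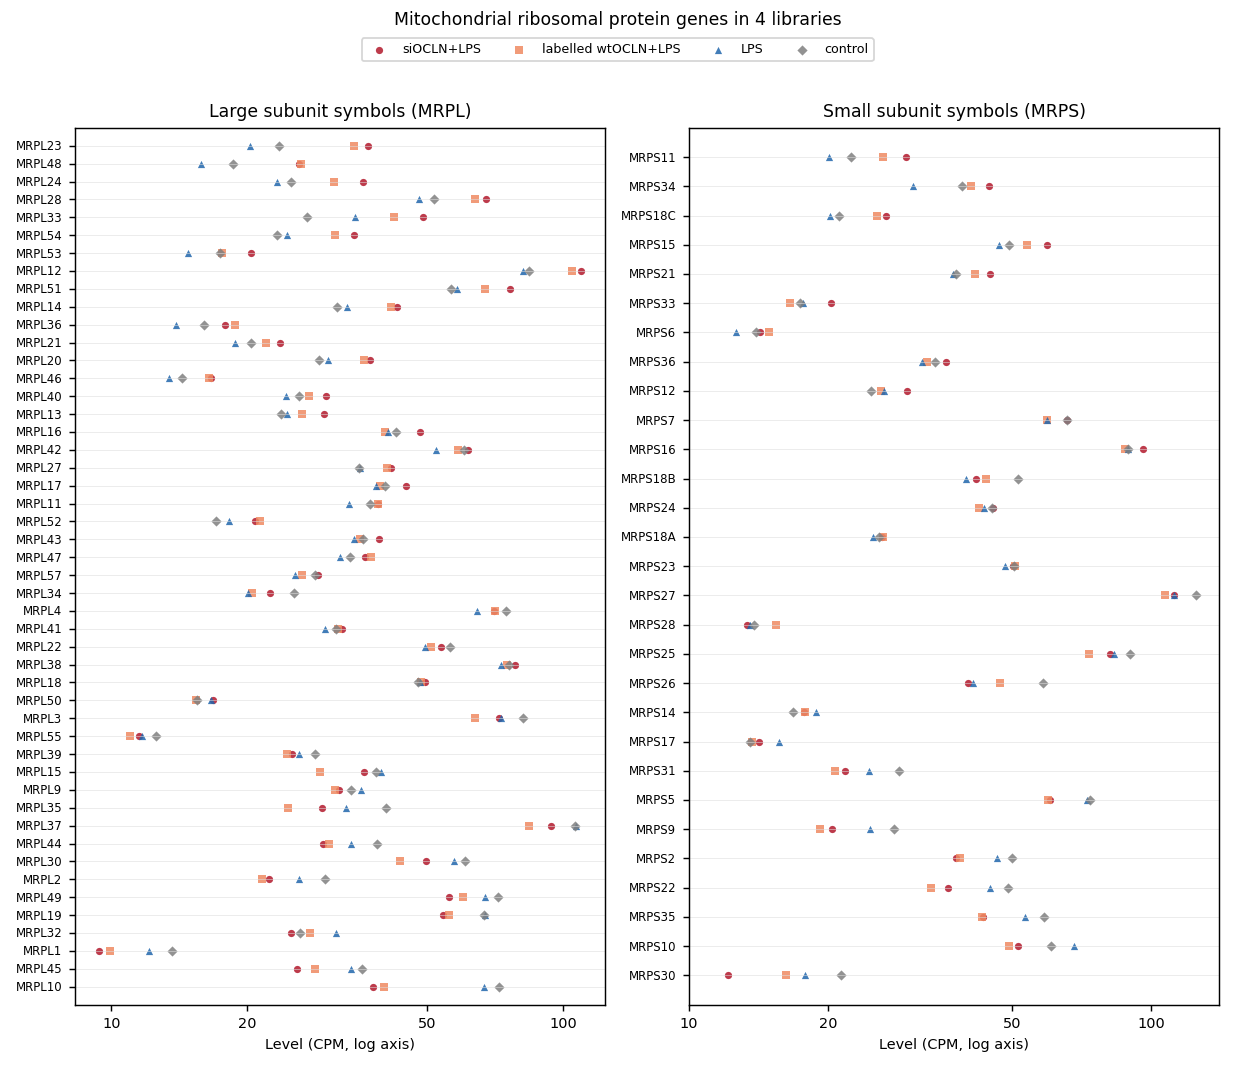
Level of each of the 77 members in each library (CPM, log axis), large subunit symbols on the left and small subunit symbols on the right, ordered from the highest to the lowest siOCLN+LPS over LPS ratio. Each point is 1 library; in the top rows the transfected libraries lie to the right of the others, in the bottom rows to the left.

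MRPS27, a pentatricopeptide repeat protein of the small subunit, had the most counts, a figure that also depends on length, with 112 CPM in siOCLN+LPS, 107 CPM in the library labelled wtOCLN+LPS, 112 CPM in LPS and 125 CPM in control. The fewest in siOCLN+LPS came from MRPL1, a protein of the L1 stalk, with 9.38 CPM there, 9.94 CPM in the library labelled wtOCLN+LPS, 12.1 CPM in LPS and 13.6 CPM in control. Levels of different genes can be set beside each other only per length. Per kilobase of the longest annotated transcript, the mean over libraries was highest for MRPL12 (92.5 CPM per kb), MRPL33 (73.8), MRPL37 (61.8) and MRPS24 (59.4). It was lowest for MRPL42 (3.74), MRPS33 (4.23), MRPL50 (4.82) and MRPS11 (6.74 CPM per kb). The order depended on the annotation: per kilobase of coding sequence MRPL12 ranked 4 and MRPL33 ranked 2 of 77 from the top, but MRPL37 ranked 29, MRPS24 ranked 15 and MRPL42 ranked 8. Several symbols have copies or neighbours that can share reads. Exons of 22 members overlap another gene in the table, MRPS24 and URGCP-MRPS24 on the same strand among them, and MRPL42, MRPL45 and MRPS31 have a pseudogene symbol in the table, so their values are uncertain.

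The first question was what LPS alone did over 2 h, and the members hardly differed between these libraries. Of 77 members, 1 was higher and 4 were lower in LPS than in control, where 5.08% of all genes were higher and 8.94% lower. None passed 1.5-fold, which 2.84% of all genes did upward and 1.19% downward. The median log2 ratio was -0.09 for the members and -0.09 for all genes. MRPL33, the counterpart of a small bacterial large subunit protein, was the 1 higher member, at 34.7 CPM in LPS and 27.1 CPM in control, 1.28-fold (1.12 to 1.46). MRPL32, which an inner membrane protease trims before it joins the ribosome, was next, with 31.4 CPM in LPS and 26.2 CPM in control. The lower members were MRPS26, MRPS18B, MRPS34 and MRPL34. MRPS26, a small subunit protein without a bacterial counterpart, had 41.1 CPM in LPS and 58.2 CPM in control, 1.42-fold lower (1.27 to 1.57). MRPS18B, 1 of 3 human homologs of bacterial S18, had 39.8 CPM in LPS and 51.5 CPM in control, 1.29-fold lower (1.16 to 1.45). The other lower members were 1.28-fold and 1.27-fold lower. MRPL33 and MRPS26 kept their call under all 4 scalings of the libraries that were tried. So did 5.08% of all genes as higher and 4.44% as lower. The scalings other than library totals raised every ratio here, so a higher call could not be lost.

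The second question was how cells given the occludin siRNA before LPS differed from cells given LPS alone, and here the members split. Of 77, 16 were higher and 6 lower in siOCLN+LPS, while 17.7% of all genes were higher and 30.4% lower. At 1.5-fold 3 members were higher (8.5% of all genes) and 1 was lower (12.9% of all genes), and no member reached 2-fold in any of the 6 comparisons on this scaling (with TMM factors MRPL23 was 2.02-fold above LPS in siOCLN+LPS, and MRPL33 2.14-fold above control). The median log2 ratio was 0.12 for the members, with quartiles at -0.16 and 0.27, and -0.11 for all genes. The share of members higher, 20.8%, thus lay near that of all genes, and the share lower, 7.79%, lay below it. Large subunit symbols had 12 of 48 higher and 4 lower, with a median of 0.18. Small subunit symbols had 4 of 29 higher and 2 lower, with a median of 0.06. The split depends on the scaling: with TMM factors 31 members were higher and 2 lower, beside 26.1% and 19.5% of all genes. TMM moved the median of all genes by 0.15, and the members then had a median of 0.26 beside 0.04 for all genes.

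The third comparison, of the library labelled wtOCLN+LPS with LPS, uses the same LPS library, so its values stand beside the second and are no independent repeat. Of 77 members, 11 were higher and 8 lower, while 16.2% of all genes were higher and 30.9% lower. At 1.5-fold 2 members were higher (8.07% of all genes) and 1 was lower (12.1% of all genes). The median log2 ratio was 0.03 for the members and -0.13 for all genes, with 0.05 for large and -0.02 for small subunit symbols. With TMM factors 28 members were higher and 1 lower, beside 25.4% and 17.4% of all genes, at medians of 0.20 and 0.04, and the small subunit median was above 0, at 0.14.

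**Figure D2:**
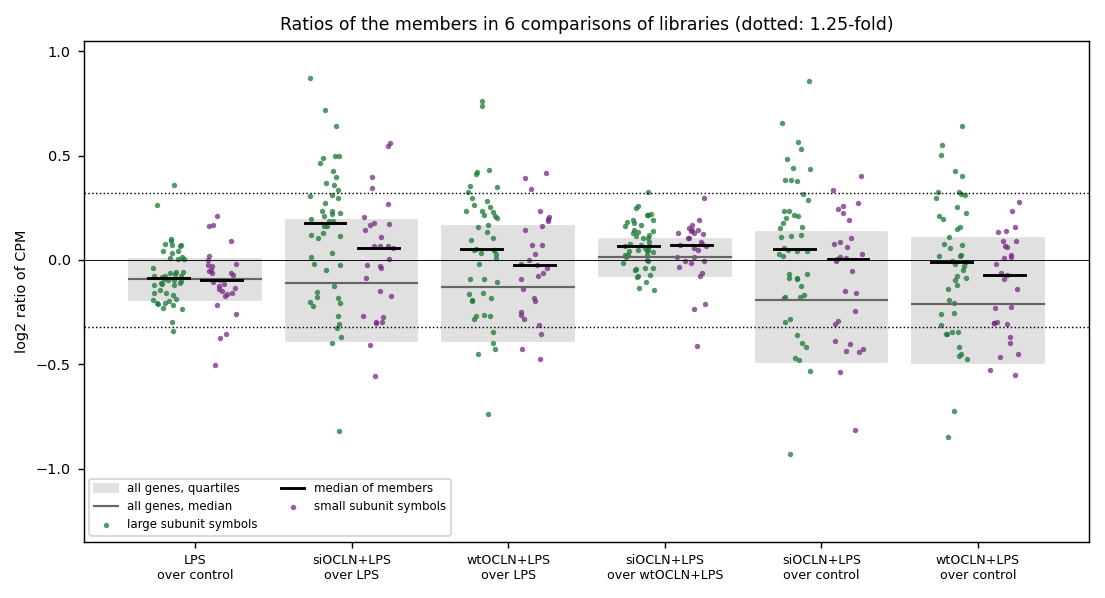
Log2 ratio of CPM of each member in the 6 comparisons of libraries, large subunit symbols in green and small subunit symbols in purple (points), with the median of the members (black bars) beside the median and quartiles of all 9807 genes (grey). Against LPS and against control the members of the transfected libraries spread around 0 while the grey medians lie below it, at -0.11 and -0.13 against LPS.

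In the stalk of the large subunit, which recruits translation factors, MRPL10 was lower and MRPL12 higher in the transfected libraries. MRPL10, which anchors the stalk, had 38.0 CPM in siOCLN+LPS, 40.1 CPM in the library labelled wtOCLN+LPS, 67.0 CPM in LPS and 72.3 CPM in control. It was 1.76-fold lower (1.59 to 1.95) in siOCLN+LPS than in LPS and 1.67-fold lower (1.51 to 1.84) in the one labelled wtOCLN+LPS. MRPL12, which MRPL10 carries and which also binds the mitochondrial RNA polymerase, had 110 CPM in siOCLN+LPS, 105 CPM in the library labelled wtOCLN+LPS, 81.8 CPM in LPS and 84.1 CPM in control. It was 1.34-fold higher (1.246 to 1.44) and 1.28-fold higher (1.19 to 1.38) than in LPS. MRPL11, at the stalk base, had 38.9 CPM in both transfected libraries, 33.5 CPM in LPS and 37.4 CPM in control. That was within the base threshold on library totals. With TMM factors MRPL11 passed it against LPS, at 1.28-fold in siOCLN+LPS and 1.30-fold in the library labelled wtOCLN+LPS. Both transfected libraries lay below both others for MRPL10 and above both for MRPL12. Within a library, where no scaling enters, there were 2.89 MRPL12 counts per MRPL10 count (2.64 to 3.16) in siOCLN+LPS and 2.61 (2.39 to 2.85) in the one labelled wtOCLN+LPS. The same ratio was 1.22 (1.12 to 1.33) in LPS and 1.16 (1.07 to 1.26) in control.

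Around the exit of the peptide tunnel, MRPL23 and MRPL24 were higher in both transfected libraries, and MRPL45 was lower in siOCLN+LPS. MRPL23 had 37.0 CPM in siOCLN+LPS, 34.4 CPM in the library labelled wtOCLN+LPS, 20.3 CPM in LPS and 23.5 CPM in control, 1.83-fold (1.59 to 2.11) and 1.70-fold (1.47 to 1.96) above LPS. MRPL24 had 36.2 CPM in siOCLN+LPS, 31.1 CPM in the library labelled wtOCLN+LPS, 23.2 CPM in LPS and 25 CPM in control, 1.56-fold (1.36 to 1.79) and 1.34-fold (1.16 to 1.54) above LPS. For both genes the transfected libraries lay above the others, and the antisense gene MRPL23-AS1 was at most at 0.793 CPM; without the strand setting, reads of the pair cannot be told apart. MRPL45, which ties the ribosome to the inner membrane, had 25.7 CPM in siOCLN+LPS, 28.3 CPM in the library labelled wtOCLN+LPS, 34.0 CPM in LPS and 35.9 CPM in control, 1.32-fold (1.16 to 1.5) and 1.2-fold (1.06 to 1.36) below LPS, the second without passing the base threshold. MRPL22, another protein of the tunnel wall, was within the base threshold, and MRPL23 counts per MRPL22 count were 0.690 in siOCLN+LPS and 0.673 in the one labelled wtOCLN+LPS, against 0.409 in LPS and 0.417 in control.

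In the central protuberance, the crown of the large subunit, all 6 members examined (MRPL18, MRPL27, MRPL38, MRPL40, MRPL46 and MRPL48) had log2 ratios above 0 against LPS in both transfected libraries. Of all genes, 39.9% had ratios above 0 in siOCLN+LPS and 37.5% in the one labelled wtOCLN+LPS. Among the 48 large subunit symbols the shares were 66.7% and 62.5%. The 6 were chosen after their values were seen, so the count describes these genes and not the structure. Large subunit members that are not among these 6, such as MRPL35 and MRPL55, lay below LPS in both transfected libraries. MRPL35 was at 0.885 and 0.744 times LPS, and MRPL55 at 0.985 and 0.939 times. On library totals MRPL48 was the one member of the group past the base threshold; with each of the other 3 scalings MRPL27, MRPL40 and MRPL46 also passed it in siOCLN+LPS over LPS. MRPL48 had 26.0 CPM in siOCLN+LPS, 26.3 CPM in the library labelled wtOCLN+LPS, 15.8 CPM in LPS and 18.6 CPM in control, 1.64-fold (1.4 to 1.94) and 1.66-fold (1.41 to 1.96) above LPS. MRPL18, whose bacterial counterpart binds the smallest ribosomal RNA, stayed between 47.8 and 49.4 CPM in all 4 libraries. The group's medians were 0.26 in siOCLN+LPS and 0.18 in the one labelled wtOCLN+LPS. Elsewhere in the large subunit, MRPL33 had 49.0 CPM in siOCLN+LPS, 42.2 CPM in the library labelled wtOCLN+LPS, 34.7 CPM in LPS and 27.1 CPM in control. Each library had its own level of MRPL33, and siOCLN+LPS was 1.41-fold (1.26 to 1.58) above LPS and 1.81-fold above control. MRPL28 had 67.7 CPM in siOCLN+LPS, 63.7 CPM in the library labelled wtOCLN+LPS, 47.9 CPM in LPS and 51.9 CPM in control. MRPL28 overlaps TMEM8A on the same strand, so reads may be shared between them. MRPL36, a short zinc-binding protein, had 17.9 CPM in siOCLN+LPS, 18.7 CPM in the library labelled wtOCLN+LPS, 13.9 CPM in LPS and 16 CPM in control. MRPL41, also studied for binding p53, lay between 29.8 and 32.3 CPM throughout.

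Among small subunit symbols, MRPS11 and MRPS34 were highest relative to LPS. MRPS11, which lines the mRNA path on the platform, had 29.5 CPM in siOCLN+LPS, 26.3 CPM in the library labelled wtOCLN+LPS, 20.05 CPM in LPS and 22.3 CPM in control, 1.47-fold (1.27 to 1.71) and 1.31-fold (1.13 to 1.53) above LPS. MRPS34, a protein whose loss destabilises the small subunit, had 44.5 CPM in siOCLN+LPS, 40.7 CPM in the library labelled wtOCLN+LPS, 30.5 CPM in LPS and 39.0 CPM in control. On library totals it was the LPS library that stood apart for MRPS34, since siOCLN+LPS was 1.46-fold above LPS but 1.14-fold above control. This depends on the scaling. With TMM factors siOCLN+LPS was 1.35-fold above control and passed the base threshold, as did the library labelled wtOCLN+LPS. LPS, at 0.836 times control with TMM factors, did not pass it. MRPS10, a protein of the head of the subunit, had 51.4 CPM in siOCLN+LPS, 49.1 CPM in the library labelled wtOCLN+LPS, 68.1 CPM in LPS and 60.8 CPM in control, 1.33-fold (1.21 to 1.45) and 1.39-fold (1.26 to 1.52) below LPS. MRPS12, at the decoding centre, lay between 24.8 and 29.6 CPM, and MRPS16 between 87.8 and 95.8 CPM. The 3 homologs of S18 did not move as a set. MRPS18C was 1.32-fold and 1.27-fold above LPS, at 26.6 CPM in siOCLN+LPS, 25.5 CPM in the library labelled wtOCLN+LPS, 20.2 CPM in LPS and 21.1 CPM in control, whereas MRPS18A lay between 25 and 26.2 CPM in all libraries and MRPS18B did not pass the base threshold against LPS.

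MRPS30 and MRPL37 are homologs that sit in the large subunit. MRPS30 had 12.1 CPM in siOCLN+LPS, 16.2 CPM in the library labelled wtOCLN+LPS, 17.8 CPM in LPS and 21.3 CPM in control. It was 1.47-fold (1.22 to 1.77) below LPS in siOCLN+LPS; in the library labelled wtOCLN+LPS it was 1.10-fold below LPS, with an interval from 0.925 to 1.31. MRPL37 had 94.0 CPM in siOCLN+LPS, 83.9 CPM in the library labelled wtOCLN+LPS, 107 CPM in LPS and 107 CPM in control. It was 1.14-fold (1.06 to 1.22) below LPS in siOCLN+LPS, without passing the base threshold, while in the library labelled wtOCLN+LPS it was 1.27-fold (1.18 to 1.37) below and passed. Others at the low end in the library labelled wtOCLN+LPS were MRPL15, with 36.2 CPM in siOCLN+LPS, 28.9 CPM in the library labelled wtOCLN+LPS, 39.5 CPM in LPS and 38.6 CPM in control, and MRPS22, with 36.4 CPM in siOCLN+LPS, 33.3 CPM in the library labelled wtOCLN+LPS, 44.8 CPM in LPS and 48.9 CPM in control. Under all 4 scalings the same 16 members were higher in siOCLN+LPS than with LPS alone, and 2, MRPL10 and MRPS30, were lower. Of all genes, 17.7% were higher and 19.5% lower under all 4. For the library labelled wtOCLN+LPS those numbers were 11 and 1, the 1 being MRPL10, beside 16.2% and 17.4% of all genes. The other 3 scalings raised every log2 ratio over LPS, by 0.11 to 0.15 in siOCLN+LPS and 0.11 to 0.17 in the one labelled wtOCLN+LPS. A higher call on library totals therefore could not be lost, and only the lower calls could be. MRPS10, MRPL45, MRPL37, MRPL15 and MRPS22 did not pass as lower with TMM factors or median ratio scaling; with upper quartile scaling MRPS10 and MRPL15 still passed for the library labelled wtOCLN+LPS.

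**Figure D3:**
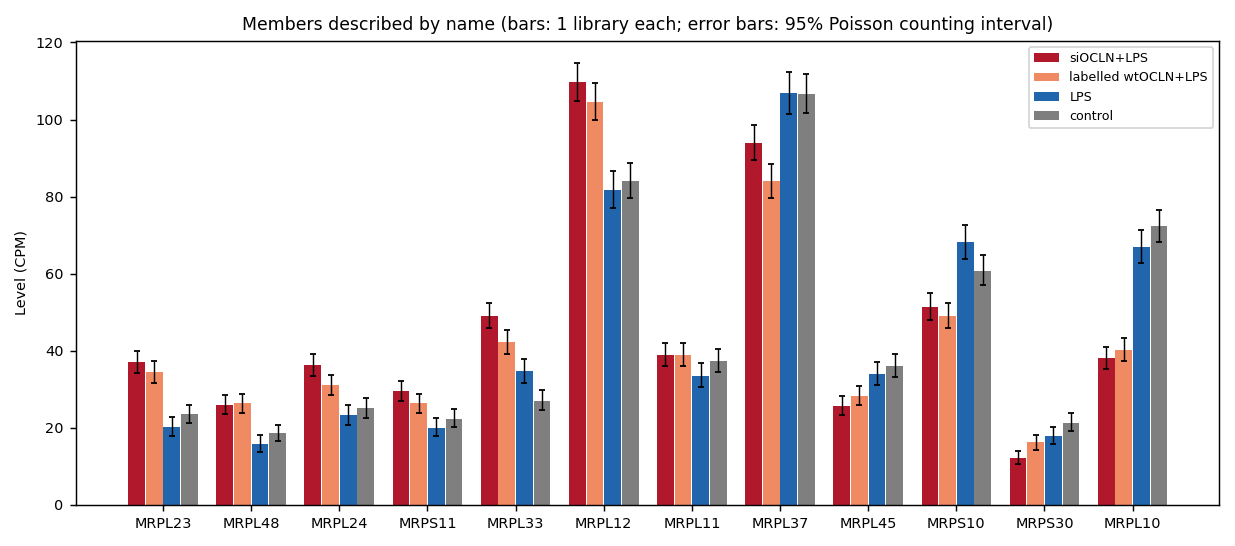
CPM of 12 members in each library (bars, 1 library each; error bars, 95% Poisson counting intervals). MRPL23, MRPL48, MRPL24, MRPS11, MRPL33 and MRPL12 are higher in both transfected libraries than in LPS and control, and MRPL10, MRPS10, MRPL45, MRPL37 and MRPS30 have lower values there.

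The regions around the annotated start sites of 4 members near the ends of the siOCLN+LPS over LPS ratio are shown because ETS and NRF1 motifs are the ones most often discussed for these genes. They are RefSeq sequences on GRCh38.p14, 5′ to 3′ on the gene's strand, from 250 bases before the start to 50 bases after it; capitals mark a match to the ETS motif CCGGAAG on either strand. MRPL48 and MRPL24 come from the high end, MRPS30 and MRPS10 from the low end; MRPL23 and MRPL10, at the very ends, are not shown.
MRPL48, chr11:73787624-73787923, plus strand: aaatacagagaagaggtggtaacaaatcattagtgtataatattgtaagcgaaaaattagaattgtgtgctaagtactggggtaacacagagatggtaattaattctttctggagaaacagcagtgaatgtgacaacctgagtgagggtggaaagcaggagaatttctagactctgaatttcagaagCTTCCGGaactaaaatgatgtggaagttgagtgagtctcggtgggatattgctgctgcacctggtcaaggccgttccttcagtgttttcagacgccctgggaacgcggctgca
MRPL24, chr1:156741039-156741338, minus strand: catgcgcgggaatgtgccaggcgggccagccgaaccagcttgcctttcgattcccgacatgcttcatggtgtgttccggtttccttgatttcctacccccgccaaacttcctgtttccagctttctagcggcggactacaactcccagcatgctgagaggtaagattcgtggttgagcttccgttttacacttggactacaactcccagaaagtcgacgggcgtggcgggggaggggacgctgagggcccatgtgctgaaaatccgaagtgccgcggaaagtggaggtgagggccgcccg
MRPS30, chr5:44808697-44808996, plus strand: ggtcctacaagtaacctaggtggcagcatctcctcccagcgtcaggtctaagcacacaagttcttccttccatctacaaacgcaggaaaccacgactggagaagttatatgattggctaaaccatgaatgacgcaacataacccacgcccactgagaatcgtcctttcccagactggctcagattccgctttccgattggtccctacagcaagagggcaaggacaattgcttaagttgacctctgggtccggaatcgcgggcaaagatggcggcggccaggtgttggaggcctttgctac
MRPS10, chr6:42217812-42218111, minus strand: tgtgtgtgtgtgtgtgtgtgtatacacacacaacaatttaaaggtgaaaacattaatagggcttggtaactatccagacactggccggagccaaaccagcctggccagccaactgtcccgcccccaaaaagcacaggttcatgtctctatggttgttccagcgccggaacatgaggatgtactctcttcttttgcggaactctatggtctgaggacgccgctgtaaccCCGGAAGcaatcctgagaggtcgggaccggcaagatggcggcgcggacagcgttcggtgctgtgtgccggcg
MRPL48 and MRPS10, near opposite ends of the ratio, each hold the ETS motif, and MRPL24 and MRPS30 do not. RefSeq gave 84 such regions for 68 of the 77 members. The ETS motif was in 38.1% of these regions, in 18.3% of the regions of all genes that entered and in 10.3% of all 35116 regions in the table. The NRF1 motif GCATGCGC, searched on both strands, was in 7.14% of the members' regions, 5.06% of those of all genes that entered and 3.05% of all regions, and 2 members (MRPL52 and MRPS18C) held both motifs. The 29 members with an ETS motif had a median log2 ratio over LPS of 0.20 in siOCLN+LPS and 0.16 in the one labelled wtOCLN+LPS, and spanned -0.41 to 0.72 in siOCLN+LPS. The 39 matched members without it had medians of 0.02 and -0.06. A match to these letters is not a binding site, and this difference was not tested.

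The ratio of a member went with the length of its coding sequence. Against LPS, the 26 members with up to 507 coding bases had a median log2 ratio of 0.19 in siOCLN+LPS and 0.13 in the one labelled wtOCLN+LPS. The 25 members with up to 770 bases had medians of 0.21 and 0.17, and the 26 longer ones had medians of -0.18 and -0.22. Of the longest group, 1 member was higher and 4 lower in siOCLN+LPS, and 0 higher and 5 lower in the one labelled wtOCLN+LPS. Of 7591 genes of that coding length, 15.6% were higher and 32.6% lower in siOCLN+LPS, with 14.8% higher and 33.0% lower in the one labelled wtOCLN+LPS. Medians of all genes with a coding length in the same ranges were lower at each step of length, at 0.16, 0.02 and -0.15 in siOCLN+LPS and 0.10, -0.02 and -0.16 in the one labelled wtOCLN+LPS, whereas the members' middle group had the highest median. Spearman's rho between coding length and log2 ratio was -0.46 in siOCLN+LPS and -0.41 in the one labelled wtOCLN+LPS over the 77 members, and -0.16 and -0.14 over 9311 genes, as a description of genes that share a library. In LPS over control rho was -0.37 over the members and -0.01 over all genes. With the trend in transcript length and GC content over all genes removed, the members' median in siOCLN+LPS over LPS was -0.00. The median of all genes was kept at -0.11 by the way the trend was removed. Then 8 members were higher and 14 lower, beside 16.3% of all genes higher and 29.3% lower. What underlies the relation with length was not tested.

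**Figure D4:**
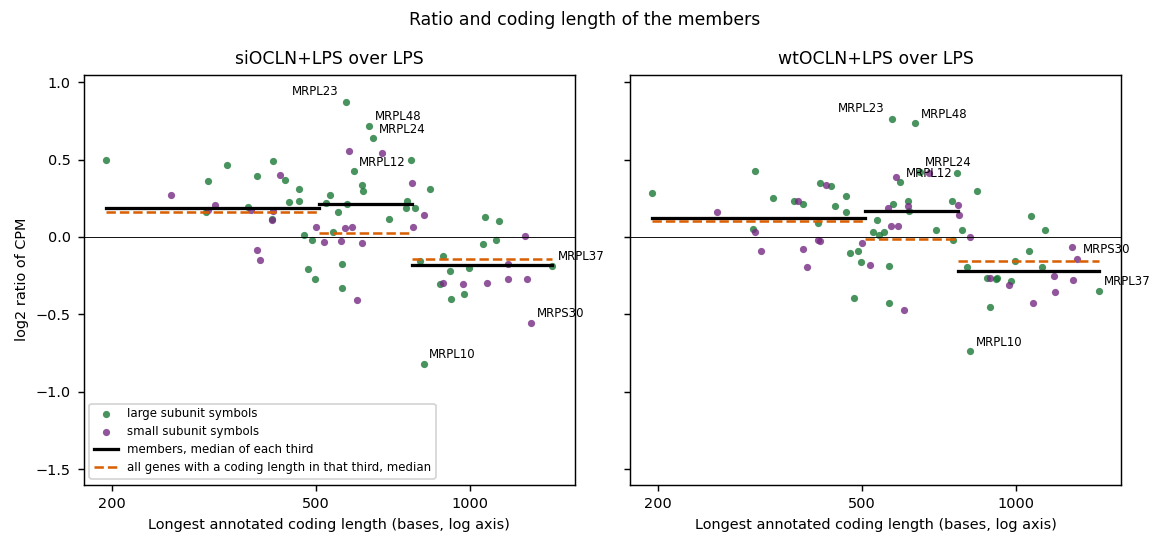
Log2 ratio of CPM over LPS of each member against its longest annotated coding length (bases, log axis), for siOCLN+LPS on the left and the library labelled wtOCLN+LPS on the right; points are members, black bars are medians of the members in each length group and dashed bars are medians of all genes of that length. The longest group lies at -0.18 and -0.22, and MRPL23, MRPL48 and MRPL24 stand above their group.

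The siOCLN+LPS library and the library labelled wtOCLN+LPS, both transfected, differed little in these genes. Of 77 members 1 was higher and 1 lower, while 1.9% of all genes were higher and 2.83% lower. No member passed 1.5-fold, as did 0.0816% of all genes upward and 0.816% downward. The median log2 ratio was 0.07 for the members, with 0.07 for large and 0.07 for small subunit symbols, and 0.01 for all genes. The lower member was MRPS30, at 12.1 CPM in siOCLN+LPS and 16.2 CPM in the one labelled wtOCLN+LPS, 1.33-fold lower (1.11 to 1.6), and it was lower under all 4 scalings. The higher member was MRPL15, at 36.2 CPM in siOCLN+LPS and 28.9 CPM in the one labelled wtOCLN+LPS, a log2 ratio of 0.33, at the threshold itself. MRPS33 followed with 20.3 CPM in siOCLN+LPS and 16.5 CPM in the one labelled wtOCLN+LPS. MRPS26 was 1.18-fold lower (1.06 to 1.30), at 40.1 CPM in siOCLN+LPS and 47.1 CPM in the one labelled wtOCLN+LPS.

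Against control, which the labels describe as given neither reagent nor LPS, 12 members were higher and 14 lower in siOCLN+LPS, while 15.7% of all genes were higher and 38.7% lower. At 1.5-fold 2 members were higher (8.59% of all genes) and 2 lower (18.8% of all genes). In the library labelled wtOCLN+LPS 7 were higher and 16 lower, beside 14.9% of all genes higher and 39.5% lower. There, at 1.5-fold, 1 was higher (8.27% of all genes) and 2 were lower (18.7% of all genes). Medians were 0.03 in siOCLN+LPS and -0.02 in the one labelled wtOCLN+LPS, beside -0.19 and -0.21 for all genes. TMM moved the median of all genes by 0.24 and 0.26, and the members then had medians of 0.27 and 0.24. With TMM factors the counts were 32 higher and 2 lower in siOCLN+LPS and 28 higher and 2 lower in the one labelled wtOCLN+LPS, where all genes had 28.3% higher and 20.2% lower in siOCLN+LPS and 27.7% higher and 18.9% lower in the one labelled wtOCLN+LPS. MRPL33 was highest, 1.81-fold in siOCLN+LPS and 1.56-fold in the library labelled wtOCLN+LPS. MRPL54, a large subunit protein, followed MRPL23 in siOCLN+LPS. It had 34.4 CPM there, 31.2 CPM in the library labelled wtOCLN+LPS, 24.5 CPM in LPS and 23.2 CPM in control. MRPL10 was lowest in both, 1.90-fold (1.73 to 2.10) and 1.8-fold (1.64 to 1.98) below control. MRPS30 was 1.76-fold (1.48 to 2.10) below control in siOCLN+LPS. MRPL35, the counterpart of bacterial L35, was 1.65-fold (1.46 to 1.87) below control in the library labelled wtOCLN+LPS, with 24.6 CPM there and 40.5 CPM in control.

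Other genes of the same machinery were counted on library totals, on which 17.7% of all genes were higher and 30.4% lower in siOCLN+LPS, with 16.2% higher and 30.9% lower in the one labelled wtOCLN+LPS. More lower than higher genes in a list is therefore also the pattern of all genes. Another 6 mitochondrial ribosome proteins carry symbols outside the rule, and 2 of 6 were higher and 1 lower than LPS in each transfected library. AURKAIP1, a small subunit protein, had 71.8 CPM in siOCLN+LPS with 68.5 CPM in the library labelled wtOCLN+LPS, against 52.0 CPM in LPS, and DAP3, a GTP-binding protein of the same subunit, had 68.6 CPM in siOCLN+LPS with 63.8 CPM in the library labelled wtOCLN+LPS, against 90.9 CPM in LPS. Of 21 assembly factors, 2 were higher and 5 lower in siOCLN+LPS, and 0 higher and 8 lower in the one labelled wtOCLN+LPS, with medians of -0.19 and -0.10. NOA1, a GTPase of small subunit assembly, had 24.1 CPM in siOCLN+LPS with 25.7 CPM in the library labelled wtOCLN+LPS, against 42.4 CPM in LPS, a 1.76-fold and 1.65-fold lower level. Of 16 translation factors and partners, 1 was higher and 2 lower in siOCLN+LPS and 1 higher and 3 lower in the one labelled wtOCLN+LPS. MTIF2, the initiation factor that brings the first tRNA, was 1.76-fold and 1.71-fold below LPS. SLIRP, which stabilises mitochondrial mRNAs, was 1.64-fold and 1.43-fold above it. Of 16 mitochondrial aminoacyl-tRNA synthetases, 2 were higher and 4 lower in each transfected library. Medians of these lists lay near or below that of all genes, and above 0 only for the proteins of the ribosome itself.

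The next lists, of mitochondrial transcription and biogenesis, are read against the same shares of all genes. Of 15 genes of mitochondrial transcription and DNA maintenance, 1 was higher and 7 lower in siOCLN+LPS and 2 higher and 9 lower in the one labelled wtOCLN+LPS. TFB2M, needed to start mitochondrial transcription, had 19.5 CPM in siOCLN+LPS with 15 CPM in the library labelled wtOCLN+LPS, against 27.8 CPM in LPS. Of 10 biogenesis regulators, 1 was higher and 6 lower in each. The coactivator PPARGC1A had 132 CPM in siOCLN+LPS with 131 CPM in the library labelled wtOCLN+LPS, against 67.9 CPM in LPS, while its relative PPARGC1B had 15.8 CPM in siOCLN+LPS with 14.0 CPM in the library labelled wtOCLN+LPS, against 32.6 CPM in LPS. GABPB1, a subunit of the ETS-family factor GABP, was 1.59-fold and 1.47-fold below LPS. Mitochondrial chaperones and proteases had 1 of 10 higher and 6 lower in siOCLN+LPS and 0 higher and 6 lower in the one labelled wtOCLN+LPS. Genes of the integrated stress response were lower in 11 of 12 in each, with medians of -1.30 and -1.32. Of 13 protein genes of mitochondrial DNA that were looked up, 0 had a row in the count tables under the symbols searched. Their transcripts therefore could not be analysed.

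As other families of similar size, 76 cytosolic ribosomal proteins and 74 nuclear-encoded respiratory chain and ATP synthase genes were set beside the members. The second list, called respiratory chain subunits here, was made by symbol pattern, takes in ATP synthase symbols and is not complete. Cytosolic ribosomal proteins had 8 higher and 3 lower in siOCLN+LPS and 4 higher and 7 lower in the one labelled wtOCLN+LPS, with medians of 0.09 and -0.01. Respiratory chain subunits had 44 higher and 1 lower in siOCLN+LPS and 37 higher and 1 lower in the one labelled wtOCLN+LPS, with medians of 0.42 and 0.32. The shares of all genes beside these counts were 17.7% higher and 30.4% lower in siOCLN+LPS, with 16.2% higher and 30.9% lower in the one labelled wtOCLN+LPS. NDUFB1, a small complex I subunit, had 31.9 CPM in siOCLN+LPS with 27.7 CPM in the library labelled wtOCLN+LPS, against 13.8 CPM in LPS. The members' medians, 0.12 and 0.03, were close to those of the cytosolic ribosome and below those of the respiratory chain; these differences between lists were not tested.

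**Figure D5:**
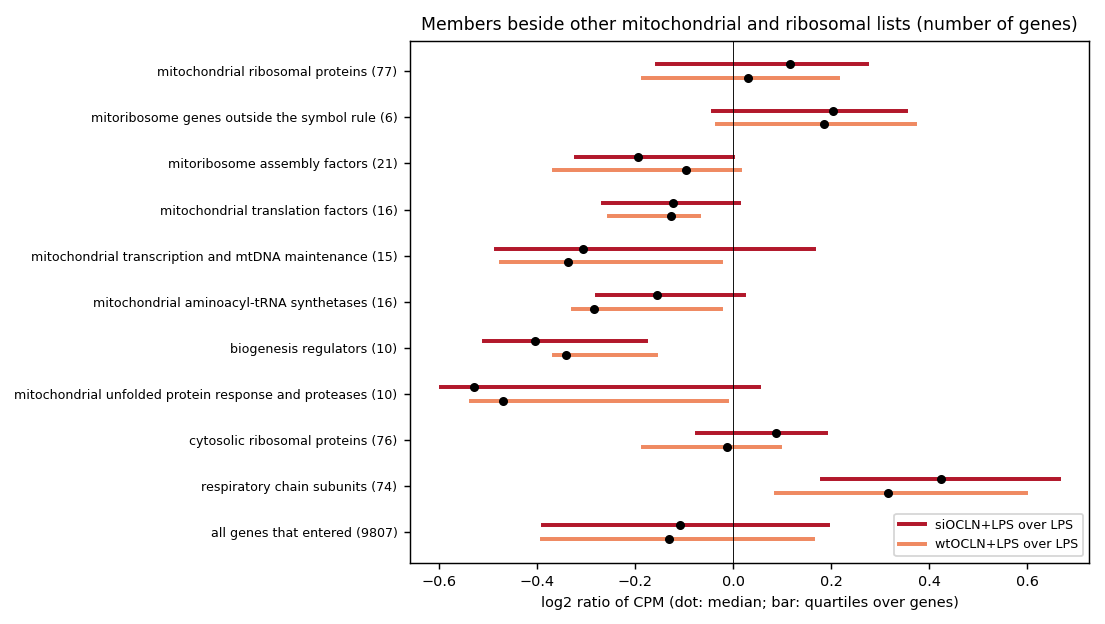
Median (dot) and quartiles (bar) of the log2 ratio of CPM over LPS for the members, other mitochondrial and ribosomal gene lists and all genes that entered, with the number of genes in brackets; siOCLN+LPS in red and the library labelled wtOCLN+LPS in orange. Respiratory chain subunits, a list that takes in ATP synthase symbols, lie at 0.42 and 0.32, the members at 0.12 and 0.03, and all genes at -0.11 and -0.13.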

How the data were processed

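RNA from 4 BEAS-2B cultures, 1 library per group, was sequenced after preparation from total RNA and a kit that keeps strand, as the labels' protocols state. The values deposited by the authors were whole-number counts per gene symbol. The submitters' processing notes name TopHat, Cufflinks and hg19. Neither the counting tool nor its strand setting or annotation is stated (not given in the sources used here), so overlapping, antisense and near-identical genes are uncertain. No row lacked a gene name. 1 marker of another cell type is not reported here.

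From the counts, CPM per library total, ratios, exact Clopper-Pearson intervals for ratios and shares and exact Poisson intervals for single CPM values were computed with Python 3.11.15, NumPy 2.4.6, SciPy 1.17.1 and pandas 2.3.3, and TMM factors with R 4.3.3 and edgeR 4.0.16. With 1 library per group no test across genes could be fitted. The counting step was tested on simulated data. Length and GC content were those of each symbol's longest transcript in GENCODE 29, and overlaps from the same annotation, used for names only because its build differs from hg19. Start site regions are RefSeq's.

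Named members were the 4 highest and 4 lowest ratios of each comparison and of the level per kb, members with an established further role, and up to 3 genes of each other list. Others are named to complete a count or a structural group, and were chosen after their values were seen, as were the structural groups, the cytosolic ribosome and respiratory chain lists and the coding length groups. The members and lists were chosen with earlier results of these data known. Alternatives tried were 3 other scalings, other filters on level, a pseudocount, a 1.5-fold threshold, the mean for the median, uncertain symbols left out and length trends removed.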

Additional observations from a re-analysis of the deposited data

How the results depend on the processing

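No paired analysis was possible because each group has 1 library, and for the same reason no replicate could be left out. TMM, median ratio and upper quartile scaling moved the counts of members past the base threshold, given here as higher and lower in that order of scalings. In LPS over control they were 2 and 1 under all 3, beside 6.72% to 6.89% of all genes higher and 4.44% to 4.67% lower. In siOCLN+LPS over LPS they were 31 and 2, 30 and 2, and 26 and 2, with medians of 0.26, 0.26 and 0.23. Shares of all genes there were 26.1% and 19.5%, 25.9% and 19.7%, and 24.0% and 21.8%. In the library labelled wtOCLN+LPS over LPS they were 28 and 1, 27 and 1, and 19 and 3, with medians of 0.20, 0.19 and 0.14. Shares of all genes there were 25.4% and 17.4%, 25.3% and 17.6%, and 21.6% and 21.7%. In siOCLN+LPS over control they were 32 and 2, 32 and 2, and 28 and 4. Shares of all genes there were 28.3% and 20.2%, 28.3% and 20.2%, and 25.9% and 22.7%. In the library labelled wtOCLN+LPS over control they were 28 and 2, 28 and 2, and 21 and 4, with medians of 0.24, 0.24 and 0.17. Shares of all genes there were 27.7% and 18.9% with TMM factors and 23.8% and 23.4% with upper quartile scaling. The shares with median ratio scaling lay between these. In siOCLN+LPS over the library labelled wtOCLN+LPS, 0 members were higher under TMM and median ratio scaling, beside 1.45% of all genes under each. Summed levels were 3347, 3346 and 3320 CPM in siOCLN+LPS, 3228, 3225 and 3144 CPM in the one labelled wtOCLN+LPS, 2885, 2890 and 2930 CPM in LPS, and 2867, 2866 and 2921 CPM in control, so under these scalings both transfected libraries lay above both others. By construction a scaling shifts every gene alike.

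With genes of a mean of at least 50 CPM only, 20 members entered. Higher and lower counts were 0 and 0 in LPS over control, beside 5.92% and 4.01% of all genes. They were 4 and 2 in siOCLN+LPS over LPS (17.2% and 27.7%) and 2 and 4 for the library labelled wtOCLN+LPS over LPS (16.4% and 27.4%). Between the transfected libraries they were 0 and 0 (0.305% and 1.81%). They were 3 and 2 in siOCLN+LPS over control (16.9% and 34.2%), with 0 and 4 in the library labelled wtOCLN+LPS over control (16.4% and 34.1%). At 1.5-fold, with all 77 members, they were, in the same order, 0 and 0, 3 and 1, 2 and 1, 0 and 0, 2 and 2, and 1 and 2. The shares of all genes at 1.5-fold are given with each comparison above. With the trend in transcript length and GC content removed, 0 members were higher in LPS over control, beside 5.14% of all genes. In siOCLN+LPS over LPS 8 were higher and 14 lower, beside 16.3% and 29.3% of all genes. In the library labelled wtOCLN+LPS over LPS 4 were higher and 13 lower, beside 14.8% and 29.8%. Between the transfected libraries 0 were higher, beside 1.70%. In siOCLN+LPS over control 6 were higher and 18 lower, beside 14.7% and 37.8%. In the library labelled wtOCLN+LPS over control 2 were higher and 24 lower, beside 13.6% and 39.5%. The coding length trend gave a median of -0.040 in siOCLN+LPS over LPS. On the log2(CPM + 1) scale 0 members were higher between the transfected libraries, beside 1.53% of all genes. Under the rule used, 114 alternative values counted as unchanged and 84 as moved. A count was unchanged within 1.5-fold of its main value, and a median within the counting interval of the middle member. That rule is wide. In the library labelled wtOCLN+LPS over control, 24 lower members against 16 on library totals counted as unchanged. So did a median of 0.27 with TMM factors against 0.03 on library totals, in siOCLN+LPS over control. At the lowest count, 162 for MRPL55 in LPS, a difference at the base threshold is near the counting error; the spread between cultures is unknown.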
